A study of Nicotiana tabacum with 12 samples.

Results

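The early response to AmMIXTA was measured 4 h after induction, in 3 induced and 3 non-induced libraries out of the 12 of the series. All libraries came from tobacco seedlings (Nicotiana tabacum, cultivar Petit Havana SR1), a green leafy plant whose leaves carry hairs that secrete resin. The 3 libraries called induced here are from T2 seedlings of stably transformed plants treated with β-estradiol, collected at 7 days of age and 4 h after induction. The 3 libraries called control are from seedlings of the same age and time without the inducer. Both groups carry AmMIXTA under an estradiol-inducible promoter, so the groups differ in the inducer and not in the transgene. Each library pools the aerial parts of 15 seedlings. The labels do not say how many transformed lines were used, and they describe growth on estradiol for 7 days as well as a time after induction, so when the inducer was first given is not fully stated. Estradiol-treated seedlings without the transgene and the level of AmMIXTA itself were not analysed here. An effect of estradiol and an effect of AmMIXTA therefore cannot be told apart.

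AmMIXTA is a MYB transcription factor of snapdragon, known for giving petal epidermal cells their conical shape. Related MYB factors promote hairs and cone-shaped cells in the epidermis of other plants, and in tobacco MIXTA-type factors can raise the number of glandular trichomes, the multicellular hairs that make and release resins. The cotyledons of tobacco seedlings normally lack such hairs. The study asked which genes act when trichomes are first set up, and 4 h is the earlier of its 2 times. Growth hormones are among the known partners of such changes: brassinosteroids, auxin and gibberellins promote cell expansion, and C2H2 zinc finger proteins link gibberellin to trichome formation in Arabidopsis.

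Of the 45034 genes of the series, 44403 are in the 4 h table, of which 44399 were kept and 4 were left out because a single library held a value above 5000 and more than 20 times the gene's median. The values are the authors' normalised values, which equal whole reads divided by 1 factor per library and have no correction for gene length. The kept reads behind them numbered 22423219 to 30103266 in induced libraries and 917871, 20600343 and 27192188 in control replicates 1, 2 and 3. The 4 genes left out held 43% and 40.1% of the reads of control replicates 1 and 2 and at most 0.105% of the others. Control replicate 1 was shallow: 1 read there was worth 0.697 units, against 0.0214 to 0.0322 in the other 5, and 28951 genes had fewer than 10 reads in it. The markers of green tissue fitted the label, with the light-harvesting genes Lhcb4 at 2830 ± 170 and 2640 ± 229 and Lhcb5 at 2160 ± 59.6 and 2020 ± 185 in induced and control libraries (SD, n = 3 each). The labels do not say whether replicates were separate sowings, so p-values here reflect the scatter of these libraries, perhaps technical.

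Few genes passed the test at 4 h, and more of these were lower than higher in induced seedlings. Among 37238 genes tested, 131 passed limma's test at an adjusted p under 0.05, which is 0.352% of them: 36 were higher (0.0967%) and 95 were lower (0.255%) in induced seedlings. The 36 higher genes were mostly modest changes, with a median log2 fold change of 0.78 and 9 at 1 or more. The 95 lower genes had a median of -0.91, and 40 of them were at -1 or below. In all 131 genes the induced and control libraries did not overlap, while over all genes tested the induced libraries lay wholly above the control ones in 5.45% and wholly below in 4.95%. The median log2 fold change of all genes was 0.02, with 20108 positive and 17130 negative. At an unadjusted p under 0.05 by limma, 1092 genes were higher and 1046 lower, so the excess of lower genes is one of the adjusted calls. Among the 1278 tested genes with a name, from which the lists of nuclear genes below were drawn, 29 were higher and 3 lower. When libraries were paired by the number in their descriptions, 376 genes passed (1.01%), 161 of them higher (0.432%) and 215 lower (0.577%), and these included all 131. The labels do not state such a pairing, and it was chosen from the same values. Pairing by the number in the titles, which differs, gave 242 genes, 94 higher and 148 lower. Without the shallow control replicate 1, 85 of 36595 genes passed (0.232%), with 22 higher (0.0601%) and 63 lower (0.172%).

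**Figure D1:**
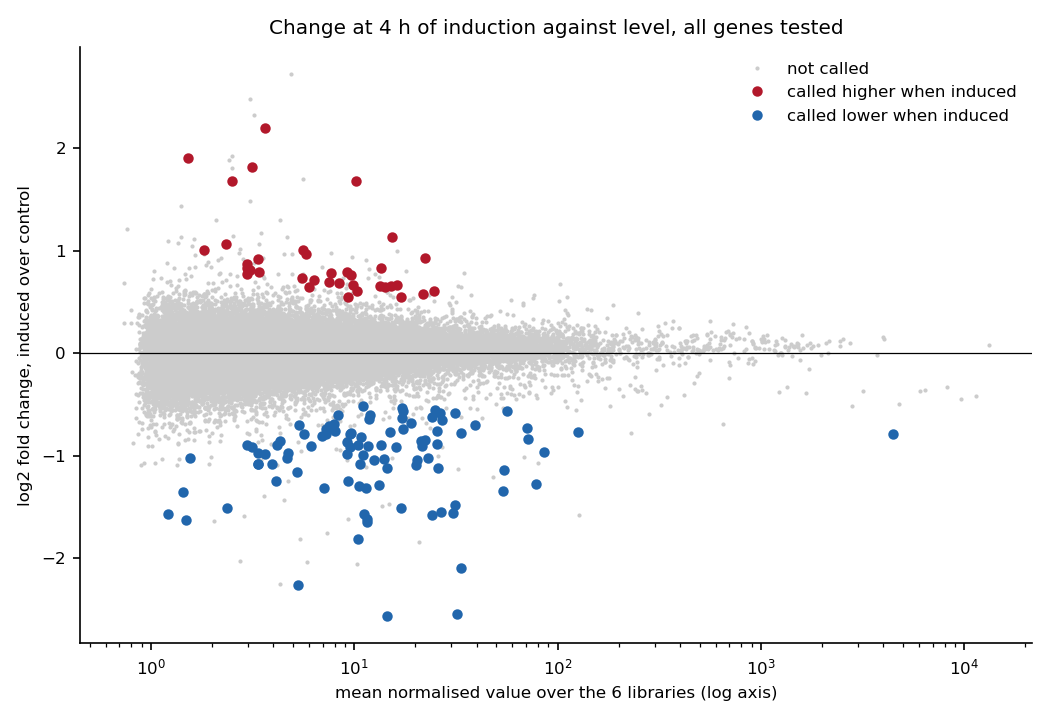
Each point is 1 of the 37238 genes tested, with its mean normalised value over the 6 libraries on a log axis and its log2 fold change of induced over control on the other axis. Red marks the 36 genes higher and blue the 95 genes lower in induced seedlings, and the log2 fold changes of these called genes run between -2.57 and 2.2.

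The calls of higher genes ended under other settings more often than those of lower genes. Of the 36 higher genes, 0 passed under all 18 alternatives by limma, edgeR and DESeq2, against 36 of the 95 lower genes. By edgeR 12 of the 36 passed, by DESeq2 10, and without control replicate 1 10, against 72, 71 and 61 of the 95. Of the higher genes 24 had fewer than 10 reads in control replicate 1, and of the lower genes 17.

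Brassinosteroid genes were among those that rose. Brassinosteroids are plant steroids made by a chain of cytochrome P450 enzymes and sensed by the receptor kinase BRI1. Of 6 tested genes listed by name under brassinosteroids, 3 rose and 0 fell, and 4 rose when libraries were paired, against 0.0967% and 0.432% of all genes tested. The 3 were the CYP85A1 copies below and a kinase regulator whose part in this pathway in tobacco was not tested. Among the 1278 tested genes with a name, 29 rose, and 70 when paired. CYP85A1 (LOC107760973), which in tomato and Arabidopsis carries out a last step towards the active hormone, had 6.12, 7.6 and 7.44 in induced libraries, against 3.48, 4.38 and 4.21 in control libraries. Its second copy (LOC107776096) had 3.92, 4.4 and 3.6 in induced libraries, against 2.09, 2.09 and 1.67 in control libraries. Both copies were higher in every induced library than in any control library. Their log2 fold changes were 0.74 (SE 0.15 and limma adjusted p of 0.016) and 0.87 (SE 0.17 and adjusted p of 0.016).

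A membrane-associated kinase regulator 6 (LOC107764853), of a family related to BKI1, an inhibitor of BRI1 in Arabidopsis, had 7.72, 7.48 and 7.11 in induced libraries, against 4.18, 4.7 and 4.88 in control libraries. The groups were tight and apart, and the log2 fold change was 0.64 (SE 0.14 and limma adjusted p of 0.0295). CYP734A1-like (LOC107816987), whose Arabidopsis counterpart inactivates brassinosteroids, averaged 12.3 ± 0.79 in induced and 8.14 ± 1.53 in control libraries (SD, n = 3 each), a log2 fold change of 0.57 with an adjusted p of 0.0534 by limma, and of 0.00258 in the paired fit. The receptor gene BRI1 (LOC107772773) averaged 2.46 ± 0.917 in induced and 2.81 ± 0.404 in control libraries, with overlap. CYP90 (LOC107785062), an enzyme earlier in the synthesis, was at 26.6 ± 1.41 in induced and 27.6 ± 0.575 in control libraries, also with overlap. The list's median log2 fold change was 0.61, against 0.02 over all genes. The 4 genes with the higher values stand in the authors' list of higher genes, from which many names come, so their direction is not independent evidence. The 2 outside it had a median of -0.13, and 0 of them rose.

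These calls rest on few reads in the shallow control, where CYP85A1 had 5 reads and its second copy 3. Without control replicate 1 or induced replicates 2 or 3 the call of LOC107760973 ended (log2 fold change 0.65 to 0.7), and without control replicates 1 or 3 or induced replicates 1 or 2 that of LOC107776096 ended (0.78 to 0.91). LOC107764853 was called only without control replicate 2 among the single-library omissions (0.58 to 0.68 in the other 5). By DESeq2 and with both times in 1 fit all 3 calls ended, and by edgeR those of LOC107760973 and LOC107764853 (0.73 to 0.75 for LOC107760973, 0.65 for LOC107764853 and 0.91 to 1.07 for LOC107776096 in these fits).

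Auxin promotes cell expansion, and of 8 of its genes tested 3 rose and 0 fell, with a median log2 fold change of 0.66. For comparison, 29 of the 1278 tested genes with a name rose, and 0.0967% of all genes. Auxin-induced protein 15A-like (LOC107825512), of the SAUR family of small proteins that auxin switches on quickly and that promote cell expansion, had 8.17, 9.8 and 5.58 in induced libraries, against 2.79, 4.12 and 4.26 in control libraries. A copy of the same name (LOC107818257) had 13.9, 9.85 and 13 in induced libraries, against 6.27, 8.06 and 6.52 in control libraries. The induced values of both copies scattered more than those of the controls and stayed above them. A further copy (LOC107808395) averaged 4.78 ± 0.837 in induced and 2.34 ± 0.823 in control libraries (SD, n = 3 each), with an adjusted p of 0.0589 by limma and 0.0002 in the paired fit. Reads of such short, similar genes may be split among copies in an uncertain way.

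WAG1-like (LOC107806798), a protein kinase that in Arabidopsis phosphorylates the PIN auxin carriers, had 3.82, 3.03 and 5.1 in induced libraries, against 2.09, 1.8 and 2.05 in control libraries. The lowest induced library was above the highest control, and the log2 fold change was 0.83 (SE 0.18 and limma adjusted p of 0.0465). SAUR72-like (LOC107787254) averaged 2.46 ± 0.257 in induced and 1.53 ± 0.266 in control libraries, and BREVIS RADIX-like (LOC107820231) 1.2 ± 0.086 and 0.729 ± 0.232, neither past the test (adjusted p = 0.548 and 0.893 by limma). The repressor gene iaa9 (LOC107763299) stood at 84.9 ± 6.28 in induced and 83.1 ± 7.14 in control libraries. Of the 8 genes, 6 stand in the authors' list of higher genes, and the 2 outside it had a median of 0.02. The call of WAG1-like held among omitted libraries only without induced replicate 2, that of LOC107825512 only without induced replicate 3, and that of LOC107818257 only without induced replicate 2 or control replicate 2 (log2 fold changes 0.66 to 0.86, 0.8 to 1.07 and 0.67 to 0.73 where the call ended). By edgeR, by DESeq2 and with both times in 1 fit these 3 calls also ended, and that of WAG1-like with TMM or RLE scaling and a stricter filter.

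Gibberellin and abscisic acid were each represented by a single called gene. F-box protein SNE-like (LOC107769829), whose Arabidopsis counterpart marks DELLA growth repressors for destruction in gibberellin signalling, had 13.4, 9.97 and 13.2 in induced libraries, against 6.97, 7.8 and 7.58 in control libraries. Induced replicate 2 was the lowest of its group and still above every control, and the log2 fold change was 0.66 (SE 0.13 and limma adjusted p of 0.014). Its second copy (LOC107815865) averaged 11.9 ± 1.74 in induced and 7.71 ± 1.18 in control libraries (SD, n = 3 each), with an adjusted p of 0.0525, and of 0.0016 in the paired fit. The receptor GID1B-like (LOC107798874) averaged 0.998 ± 0.284 in induced and 1.28 ± 0.528 in control libraries, with overlap. ABA DEFICIENT 4-like (LOC107812708), a chloroplast protein needed in Arabidopsis to make neoxanthin, a precursor of abscisic acid, had 27, 27.4 and 24.1 in induced libraries, against 16, 16.1 and 20 in control libraries. All induced libraries were above the controls, with a log2 fold change of 0.58 (SE 0.11 and adjusted p of 0.016).

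The receptor PYL2-like (LOC107815995) averaged 4.85 ± 0.455 in induced and 2.97 ± 0.758 in control libraries, with an adjusted p of 0.172 by limma and 0.0206 in the paired fit. Of the gibberellin genes 1 of 4 rose, and of the abscisic acid genes 1 of 8, with medians of 0.48 and 0.16. Over the 1278 tested genes with a name 29 rose, and over all genes tested 0.0967%. A negative log2 fold change was found in 1 of the 4 gibberellin and 3 of the 8 abscisic acid genes. Both SNE-like genes, ABA DEFICIENT 4-like and PYL2-like stand in the authors' list of higher genes. The call of LOC107769829 held among omitted libraries only without induced replicate 2 or control replicate 2 (0.59 to 0.68 where it ended), and that of LOC107812708 ended without control replicates 1 or 2 or induced replicate 1 (0.53 to 0.56). Both ended by edgeR, by DESeq2 and with both times in 1 fit.

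Cytokinin and ethylene genes gave no call by limma. Of 4 cytokinin genes 0 passed (1 at an unadjusted p under 0.05, 0 by edgeR and 0 by DESeq2). Histidine kinase 3-like (LOC107821378), a cytokinin receptor in Arabidopsis, had 17.3, 18.3 and 17.2 in induced libraries, against 26.5, 22.1 and 22.6 in control libraries. Every induced library was below every control, with a log2 fold change of -0.42 (SE 0.11 and limma adjusted p of 0.158, 0.0306 paired). The response regulator ARR17-like (LOC107806182) was at 7.04 ± 1.02 in induced and 6.36 ± 1.29 in control libraries. Of 12 ethylene genes 0 passed (3 at an unadjusted p under 0.05, 0 by edgeR and 0 by DESeq2), and their median was 0.04. ERF1 (LOC107825044), a tobacco factor that binds the GCC box of ethylene-responsive genes, had 2.58, 3.59 and 5.04 in induced libraries, against 1.39, 3.03 and 0.771 in control libraries. These groups overlapped, and the log2 fold change of 1.01 (SE 0.39) had an adjusted p of 0.813, and of 0.00281 in the paired fit.

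Few named transcription factors passed the test. Of 56 tested, 3 rose and 1 fell, with a median log2 fold change of 0.11, and in the paired fit 10 rose and 1 fell. Among all 1278 tested genes with a name 29 rose and 3 fell, and in the paired fit 70 and 7. Of the 56, 20 stand in the authors' list of higher genes, and the others had a median of -0.03. Basic leucine zipper 61-like (LOC107777300) had 11.5, 14.2 and 9.74 in induced libraries, against 5.57, 7.57 and 6.58 in control libraries. HEC1-like (LOC107817904), a basic helix-loop-helix factor of the HECATE family that acts in gynoecium and meristem development in Arabidopsis, had 9.92, 8.69 and 10.6 in induced libraries, against 4.88, 4.45 and 7.4 in control libraries. PTI6-like (LOC107782024), of a family of ERF factors that bind pathogenesis-related promoters in tomato, had 3.15, 2.18 and 2.46 in induced libraries, against 0.697, 1.32 and 1.13 in control libraries. None of these 3 overlapped between groups, although PTI6-like had 1 read in control replicate 1. Their log2 fold changes were 0.79 (SE 0.14), 0.78 (SE 0.16) and 1.01 (SE 0.22), with adjusted p-values of 0.0063, 0.0244 and 0.0334 by limma. The first was the most stable, since among omitted libraries only control replicate 1 ended its call (0.69), as did edgeR and DESeq2 (0.77 in both).

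The call of HEC1-like (LOC107817904) held among omitted libraries only without induced replicate 2 or control replicate 3 (0.65 to 0.76 where it ended), and that of PTI6-like (LOC107782024) only without induced replicate 2 or control replicate 2 (0.83 to 1.06). Both ended by edgeR, by DESeq2 and with both times in 1 fit. The factor that fell was a LOB domain protein of lateral organ boundary type, LBD40-like (LOC107799348). It had 0.526, 0.854 and 0.42 in induced libraries, against 2.09, 2.45 and 2.29 in control libraries, a log2 fold change of -1.35 (SE 0.23 and limma adjusted p of 0.0027). All induced libraries were below all controls. It passed the filter only through its controls, and without any 1 of them it was not tested.

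A further set of factors passed when libraries were paired, but not in the unpaired fit of all libraries. Of 3 bHLH87-like genes, LOC107769162 had 4.95, 4.06 and 5.13 in induced libraries, against 1.39, 1.58 and 3.36 in control libraries, a log2 fold change of 1.07 (adjusted p = 0.0581 by limma, 7.91e-05 paired). LOC107822913 was at 0.86 (0.0695 and 0.0163) and LOC107784890 at 0.73 (0.156 and 0.000108). All 3 copies lay wholly above the controls, as did 5.45% of all genes tested. They were named for passing the paired fit on these same values, so the lack of overlap is not separate support. Unpaired, LOC107769162 and LOC107784890 passed without control replicate 3, and LOC107769162 also without induced replicate 2. GLK1-like (LOC107817975), of a family that switches on chloroplast development in Arabidopsis, had 16.1, 21.4 and 15.4 in induced libraries, against 9.75, 11.1 and 13.4 in control libraries, a log2 fold change of 0.6 (adjusted p = 0.0589, paired 0.000875, and 0.0356 without control replicate 3). In the nuclear list of light harvesting and carbon fixation, 0 of 6 genes passed by limma, 0 at an unadjusted p under 0.05, 0 by edgeR and 0 by DESeq2, with a median of 0.12, and 1 passed in the paired fit.

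The list of named regulators of the epidermis and of trichomes, the one closest to the known work of MIXTA, gave no call by limma without pairing. It was drawn by gene names and also holds factors of other roles, such as the shade factor HAT4-like below. Its counts therefore do not describe trichome regulators alone. Of 14 tested 0 passed, against 6 at an unadjusted p under 0.05, 1 by edgeR and 0 by DESeq2, and the median log2 fold change was 0.16. Over all 37238 genes tested, 2138 were at an unadjusted p under 0.05 by limma. Zinc finger protein 8-like (LOC107828820), whose Arabidopsis counterpart promotes trichome initiation downstream of gibberellin and cytokinin, had 4.87, 5.92 and 5.52 in induced libraries, against 2.09, 3.54 and 3.47 in control libraries. HAT4-like (LOC107795152), a homeodomain factor of shade-driven elongation in Arabidopsis, had 9.13, 9.38 and 8.58 in induced libraries, against 6.97, 5.25 and 5.29 in control libraries. In both genes every induced library was above every control. Their log2 fold changes were 0.77 (SE 0.17) and 0.6 (SE 0.14), with adjusted p-values of 0.0505 and 0.0516 by limma, and of 0.00218 and 0.00525 paired. These were the 2 of 14 that passed in the paired fit, both from the authors' list of higher genes. HAT4-like was also the 1 called by edgeR (adjusted p = 0.0217) and passed without control replicate 1 (0.0321), and both genes passed with a pseudocount of 2 or no filter.

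MYB factors named in tobacco did not pass the test. NtmybA2 (LOC107773772) was at 8.89 ± 0.104 in induced and 7.96 ± 0.45 in control libraries (SD, n = 3 each), and MYB44 (LOC107764909) at 7.25 ± 0.685 and 9.28 ± 1.36. Neither passed (adjusted p = 0.978 and 0.726 by limma), and the 9 tested members of the epidermis and trichome list outside the authors' list had a median of 0.05. Summed over the 15 genes of the list, the normalised values were 58.3, 57.6 and 66 in induced libraries, against 53, 45 and 67.9 in control libraries, so the groups overlapped and 0 of the genes were at 0 in all libraries. Genes for the products of glandular hairs and for the cuticle were few: 2 and 3 were tested and 0 passed by limma (1 of each at an unadjusted p under 0.05, 0 by edgeR and DESeq2). An anthocyanin 5-aromatic acyltransferase-like gene (NtMaT1, LOC107782063) averaged 6.29 ± 0.744 in induced and 4.12 ± 0.259 in control libraries, and passed only when paired (adjusted p = 0.15, paired 0.0391). Genes of these kinds without a name in the sources used here are not counted.

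**Figure D2:**
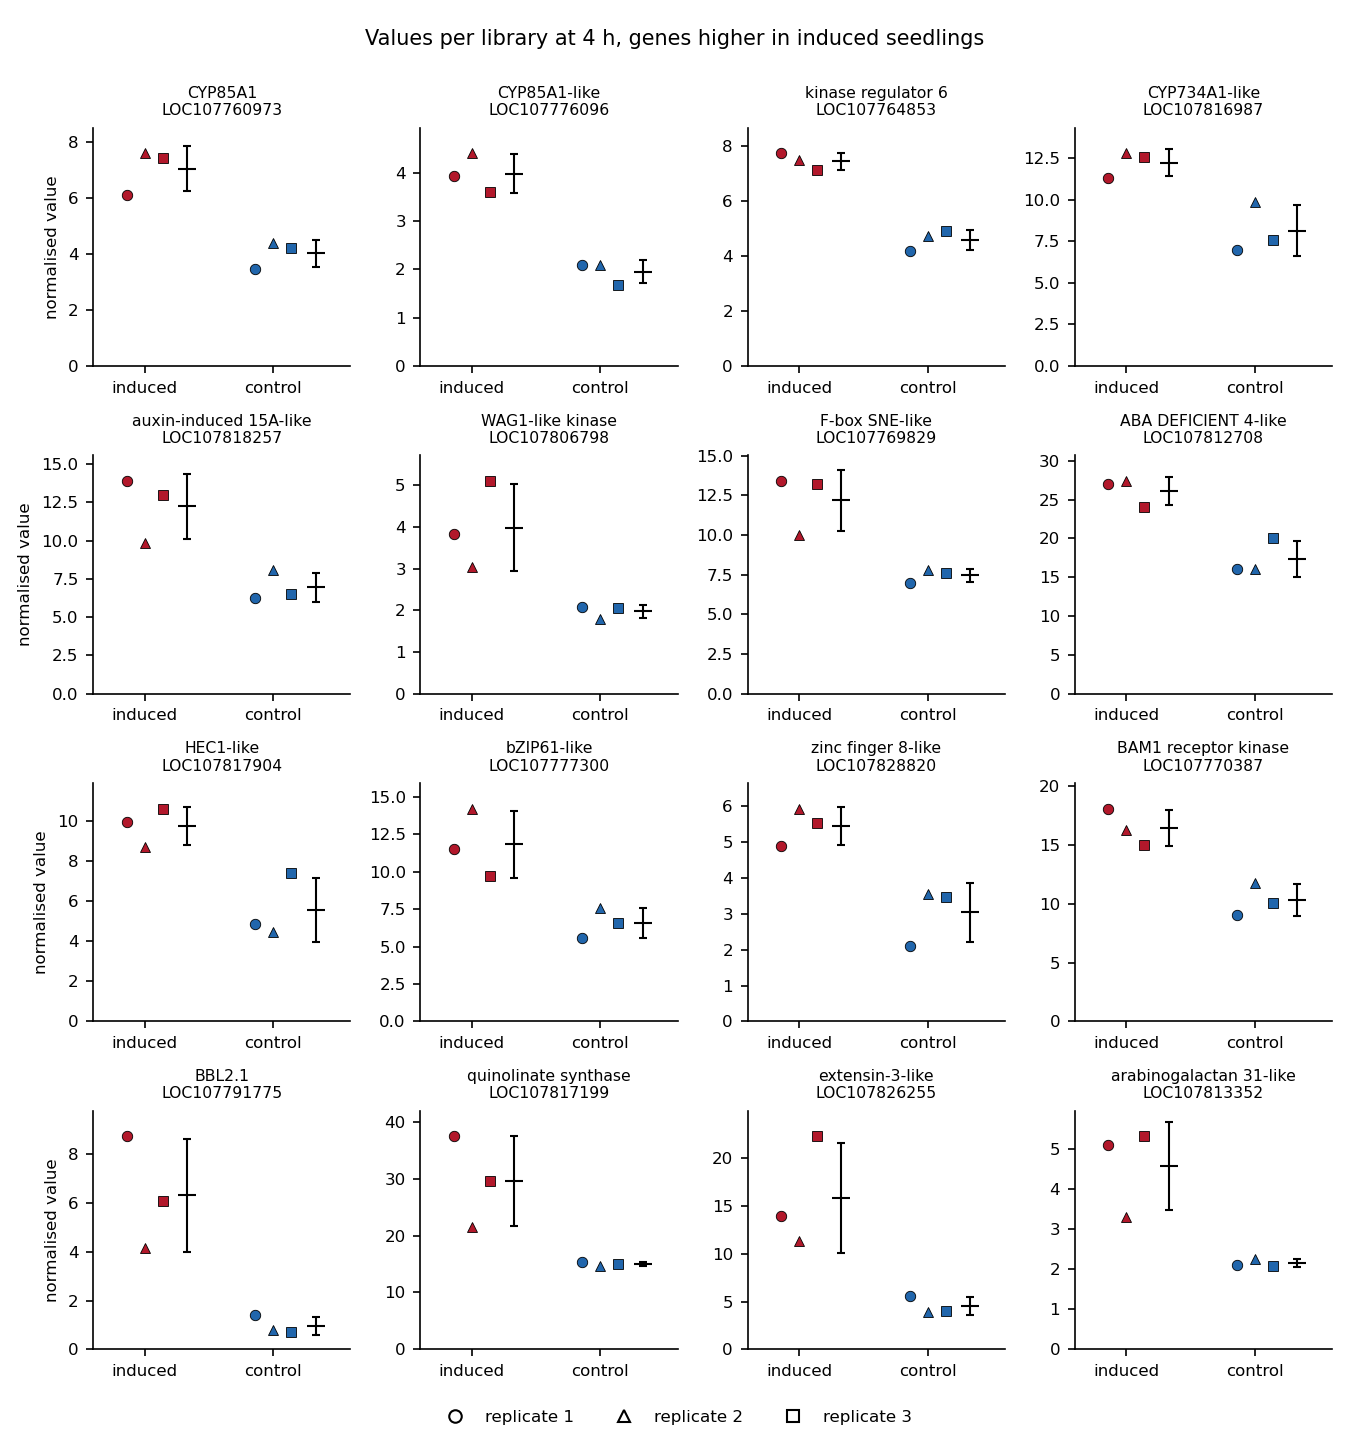
Normalised value in each of the 3 induced (red) and 3 control (blue) libraries for 16 genes that were higher in induced seedlings, with the mean and SD beside each group and the replicate shown by the symbol. In every panel the induced points lie above the control points, and CYP734A1-like and zinc finger 8-like are shown although their adjusted p-values were 0.0534 and 0.0505.

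Signalling proteins made up another group of the higher genes. Of 11 protein kinases tested 3 rose and 0 fell, WAG1-like among them, with a median log2 fold change of 0.32, and 5 of the 11 stand in the authors' list of higher genes. For all tested genes with a name the count that rose was 29 of 1278. The receptor kinase BAM1 (LOC107770387), which in Arabidopsis binds CLE peptides and acts in meristems and anthers, had 18.1, 16.3 and 15 in induced libraries, against 9.06, 11.8 and 10.1 in control libraries. The kinase AtPK2-like (LOC107761832), a relative of the kinases of ribosomal protein S6, had 10.3, 11.4 and 9.53 in induced libraries, against 4.88, 7.83 and 6.45 in control libraries. Neither overlapped between groups, and the log2 fold changes were 0.65 (SE 0.12 and limma adjusted p of 0.00833) and 0.68 (SE 0.15 and adjusted p of 0.0345). A second BAM1 gene (LOC107760335) averaged 5.87 ± 0.751 in induced and 3.7 ± 0.493 in control libraries (SD, n = 3 each), with an adjusted p of 0.126, and of 0.0223 paired. The call of LOC107770387 ended without control replicates 1 or 3 or induced replicate 1 (0.57 to 0.64) and by edgeR and DESeq2, and that of LOC107761832 held among omitted libraries only without control replicate 2 (0.52 to 0.74 where it ended) and ended by edgeR, by DESeq2 and with both times in 1 fit.

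The ubiquitin pathway, which tags proteins for destruction, had 29 genes tested, of which 4 rose and 0 fell, with a median log2 fold change of 0.2 (8 rose when paired). Over all 1278 tested genes with a name, 29 rose, and 70 when paired. In the ubiquitin list 10 genes stand in the authors' list of higher genes, and the others had a median of 0.03. Besides SNE-like the ubiquitin genes that rose were a BOI-related E3 ligase and 2 F-box proteins. The BOI-related gene (LOC107825090), of a family that in Arabidopsis restrains cell death and gibberellin responses, had 19.8, 21.2 and 18.8 in induced libraries, against 10.5, 13 and 14 in control libraries. It was among the steadier calls, with tight groups, a log2 fold change of 0.66 (SE 0.12 and limma adjusted p of 0.00587) and a pass in 16 of 18 alternatives. It was not called by DESeq2 (0.6) and without control replicate 1 (0.55). F-box protein At2g16365-like (LOC107808647) had 14.9, 16.1 and 21.6 in induced libraries, against 9.75, 12.7 and 10.4 in control libraries (log2 fold change 0.64, adjusted p = 0.0351), a call that ended without control replicates 1 or 3 or induced replicate 3 (0.49 to 0.61), by edgeR, by DESeq2 and with both times in 1 fit (0.62 to 0.65). Its second copy (LOC107768020) had 37.6, 44.8 and 48.8 in induced libraries, against 20.9, 34.6 and 21.8 in control libraries (0.78, adjusted p = 0.18, paired 5.1e-05). In the second copy control replicate 2 came close to the induced range. F-box/kelch-repeat protein At3g23880-like (LOC107802826) stood at 0.79 on the log2 scale with an adjusted p of 0.0463, and passed in 7 of 18 alternatives.

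Of 11 cell wall genes tested 2 rose and 0 fell (4 rose when paired), both from families of wall glycoproteins, and the list had a median log2 fold change of 0.42. Tested genes with a name, 1278 in number, had 29 that rose, and 70 when paired. Extensin-3-like (LOC107826255), of a family whose chains crosslink into the wall, had 14, 11.3 and 22.3 in induced libraries, against 5.57, 3.93 and 3.96 in control libraries. Arabinogalactan protein 31-like (LOC107813352) had 5.09, 3.31 and 5.31 in induced libraries, against 2.09, 2.26 and 2.08 in control libraries. In both the controls were close together and the induced libraries spread out above them. The log2 fold changes were 1.68 (SE 0.24 and limma adjusted p of 0.0257) and 0.92 (SE 0.18 and adjusted p of 0.014). Beta-glucosidases 47-like (LOC107794260) and 18-like (LOC107766388), enzymes that split sugar conjugates, had higher log2 fold changes still than the arabinogalactan protein, 1.44 and 1.21, and passed when paired (adjusted p = 0.126 and 0.109, paired 0.000199 and 0.021). Unpaired, both also passed by edgeR (0.00534 and 0.00669), by DESeq2 (0.00506 and 0.0267) and without control replicate 1 (0.00135 and 0.0151), so that with extensin-3-like 3 wall genes were higher in each of these. Their levels were low, at 2.21 ± 0.359 in induced and 0.615 ± 0.681 in control libraries for beta-glucosidase 47-like (SD, n = 3 each), with 2 reads in the shallow control.

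Other wall genes did not pass. Expansin-A6-like (LOC107802488) averaged 7.3 ± 0.775 in induced and 5.33 ± 0.88 in control libraries (adjusted p = 0.488 by limma), while the glycine-rich wall protein 1.8-like (LOC107826033) stood at 38.1 ± 6.92 in induced and 38.6 ± 4.01 in control libraries. Expansin-A10-like (LOC107792895), named here after its values were seen, went the other way, at a log2 fold change of -0.57 (SE 0.19 and limma adjusted p of 0.464). Of the 11 cell wall genes tested, 7 had a positive and 4 a negative log2 fold change. The extensin gene LOC107771653 averaged 42.3 ± 5.79 in induced and 31.9 ± 7.51 in control libraries, with overlap (adjusted p = 0.655). The 7 cell wall genes outside the authors' list of higher genes had a median of -0.03. The call of extensin-3-like (LOC107826255) ended without control replicates 2 or 3 or induced replicate 1 (1.6 to 1.74), with a pseudocount of 2 and with both times in 1 fit (1.43 to 1.7), and that of LOC107813352 without control replicates 1 or 3 or induced replicates 1 or 3 (0.81 to 0.9), by edgeR, by DESeq2 and with both times in 1 fit (0.95 to 1.08).

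Among named genes the called increases were largest in those of nicotine. Nicotine, the main alkaloid of tobacco, is made in roots from putrescine and nicotinate and is carried to the shoot. Of 20 genes of its synthesis and transport 8 rose and 0 fell, 15 rose when paired, and 17 lay wholly above the controls, against 0.0967%, 0.432% and 5.45% of all genes tested. Among the 1278 tested genes with a name, many of them named in the authors' lists of higher genes, these counts were 29, 70 and 173. Their median log2 fold change was 1.22. BBL2.1 (LOC107791775), an oxidase of the berberine bridge enzyme type in the last steps, had 8.74, 4.14 and 6.09 in induced libraries, against 1.39, 0.773 and 0.719 in control libraries. PMT1 (LOC107771646), a putrescine N-methyltransferase of the first committed step, had 7.29, 2.76 and 6.57 in induced libraries, against 2.09, 0.161 and 0.334 in control libraries. In both genes induced replicate 2 was the lowest of its group and control replicate 1 the highest. The log2 fold change of BBL2.1 was 2.2 (SE 0.24 and limma adjusted p of 8.86e-05), and that of PMT1 2.32 (SE 0.7 and adjusted p of 0.771, paired 8.8e-06).

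PMT2 (LOC107799426), another copy of that enzyme, had 3.75, 1.5 and 2.88 in induced libraries, against 0.697, 0.258 and 0.103 in control libraries, without overlap and with 1 read in the shallow control (log2 fold change 1.9, adjusted p = 0.00245 by limma). A further 5 called genes were also without overlap. BBL2.2 (LOC107830440) was at 1.82 (adjusted p = 0.00833), the vacuolar alkaloid transporter gene NtMATE2 (LOC107807968) at 1.68 (0.00286) and a second quinolinate synthase gene (LOC107813484) at 1.13 (0.0434). MPO1 (LOC107807126), the oxidase that acts after PMT, was at 1.06 (0.0247), and a nicotinate-nucleotide pyrophosphorylase gene (LOC107820078) at 0.69 (0.0324). A joint fit of the 2 times ended all 6 of these calls. NtMATE2 lost its call under no other setting, and PMT2 under none in which it was tested. PMT2 passed the filter only through its induced libraries. Without any 1 of them, or with a filter at a mean value of 2, it was not tested. The call of BBL2.2 also ended without induced replicate 3 or control replicate 3 (1.72 to 1.77), and the other 3 under 3 to 5 omitted libraries each (0.6 to 1.15). edgeR also ended the calls of LOC107813484 and LOC107820078, DESeq2 that of LOC107820078, and TMM or RLE scaling that of LOC107813484.

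Further genes of the pathway showed the same order of induced libraries. A622L (LOC107807959), of the reductases that form the alkaloid, had 13.4, 3.14 and 9.53 in induced libraries, against 2.79, 0.258 and 0.205 in control libraries, and with a log2 fold change of 2.72 it did not pass (adjusted p = 0.82 by limma, 0.674 paired). Quinolinate synthase (LOC107817199), which makes the nicotinate precursor, had 37.5, 21.6 and 29.7 in induced libraries, against 15.3, 14.6 and 15.1 in control libraries, a log2 fold change of 0.93 (SE 0.15 and adjusted p of 0.0111). Here the controls differed little and the induced libraries kept the order of A622L. Of the phosphoribosyltransferase genes, QPT2A (LOC107829122), the copy known to serve nicotine, averaged 23.7 ± 2.77 in induced and 17.2 ± 2.47 in control libraries (SD, n = 3 each; log2 fold change 0.45, adjusted p = 0.172, paired 0.0118), and QPT1B (LOC107829123), the copy of general NAD supply, 5.38 ± 0.155 and 5.41 ± 1.07. The difference between these 2 genes was not tested. ERF189 (LOC107794304), a known activator of nicotine genes named here after its values were seen, was under the filter, at 0.546 ± 0.304 in induced and 0.434 ± 0.252 in control libraries, with overlap.

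Since aerial parts were collected and these genes are known from roots, their summed level is of interest as a marker. The 20 genes summed to 189, 112 and 162 in induced libraries, against 82.2, 61.3 and 67.7 in control libraries, and 0 of them were at 0 in all libraries. In a bulk sample more cells of a type and more RNA per cell cannot be told apart, and the part of a root contribution in this difference was not tested. The sum in the shallow control rests on 118 reads. PMT, BBL, A622 and quinolinate synthase genes are near-identical copies, so the split of reads among them is uncertain. With both times in 1 fit the call of BBL2.1 (LOC107791775) ended (2.33), and the call of LOC107817199 ended without induced replicate 3 or any 1 control (0.91 to 0.94), as well as by edgeR and with both times in 1 fit (0.93 to 0.99). Of the 20 genes 13 are in the authors' list of higher genes, and the other 7 had a median of 0.45. All 8 genes that rose are in that list, and 0 of the other 7 rose. Without control replicate 1 the count that rose was 11.

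The remaining lists held few calls, beside 29 higher of the 1278 tested genes with a name and 0.0967% of all genes tested. Light and clock genes had 1 of 7 higher, F-box protein At2g16365-like again, with a median log2 fold change of 0.58 and 6 of the 7 in the authors' list of higher genes. PHYTOCHROME KINASE SUBSTRATE 3-like (LOC107815731), of a family of phototropism proteins in Arabidopsis, had 4.4, 5.51 and 3.9 in induced libraries, against 2.09, 3.48 and 2.21 in control libraries, without overlap (0.74, SE 0.18 and limma adjusted p of 0.109, 0.00559 paired). Redox and detoxification genes had 2 of 20 higher, which are the 2 CYP85A1 genes, and defence had 1 of 2, which is PTI6-like. By limma, 0 of 15 transporters passed (2 at an unadjusted p under 0.05), 0 of 5 cell cycle and chromatin genes (1), 0 of 5 calcium signalling genes (1), 0 of 3 ribosome genes (1), 0 of 2 vasculature genes (0) and 0 of 1 jasmonate gene (0), and by edgeR and DESeq2 0 of each.

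**Figure D3:**
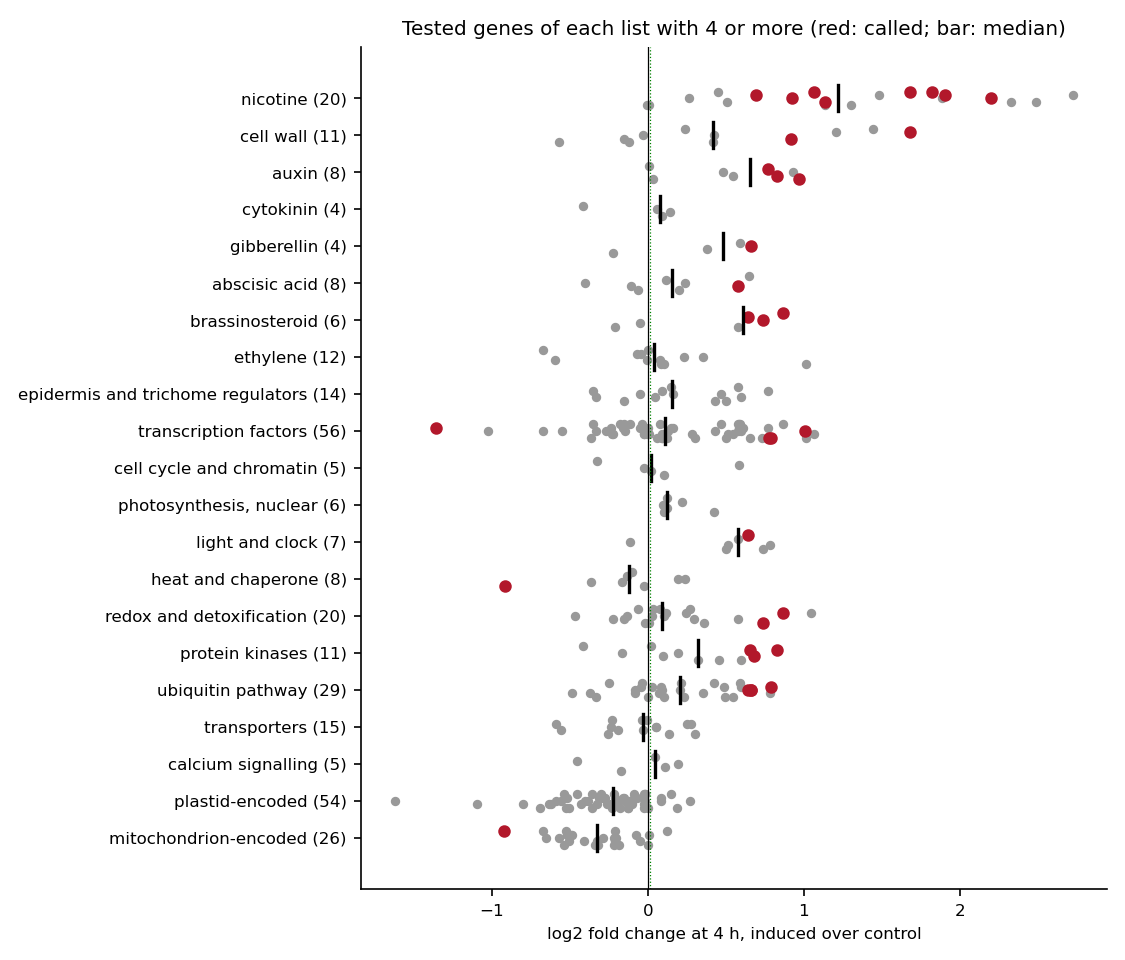
Log2 fold change of induced over control at 4 h for each tested gene of every list with 4 or more of them, with the number tested in brackets. Red points passed the test, black bars mark the list's median and the green dotted line the median of all genes at 0.02, and the nicotine list reaches furthest to the right while most plastid and mitochondrion points lie left of 0.

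Most genes encoded in the organelles had negative log2 fold changes, as did 17130 of all 37238 genes tested. Genes of 1 organelle may vary together within a library, so the counts below are not independent pieces of evidence. Of 54 plastid-encoded genes 49 had a negative log2 fold change, the median was -0.22, and 15 lay wholly below the controls, against 4.95% over all genes. By limma 0 passed, with 20 at an unadjusted p under 0.05, 0 by edgeR, 0 by DESeq2 and 1 in the paired fit. The photosystem gene psbD (NitaCp015) averaged 26.5 ± 5.18 in induced and 40.8 ± 6.82 in control libraries (SD, n = 3 each), and psbA (NitaCp001) 508 ± 157 and 798 ± 140. Of 26 mitochondrion-encoded genes 24 were negative, with a median of -0.32 and 13 wholly below the controls. The 1 that fell was cox1 (NitaMp049), a subunit of cytochrome c oxidase, with 2.03, 1.69 and 2.4 in induced libraries, against 4.18, 4.45 and 4.19 in control libraries (log2 fold change -0.92, SE 0.17 and adjusted p of 0.00758). It was not called without control replicate 1 (-0.93), by DESeq2 (-1.08) or with both times in 1 fit (-0.97).

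As shares of the kept reads, organelle reads were lower in induced libraries, without passing a test. Plastid genes held 5.84%, 4.57% and 5.51% of the kept reads in induced libraries, against 7.4%, 6.99% and 6.57% in control libraries, a difference of -1.68 percentage points. Mitochondrial genes held 0.165%, 0.195% and 0.172% in induced libraries, against 0.224%, 0.23% and 0.202% in control libraries, a difference of -0.0416 points. Neither pair of groups overlapped, and an exact two-sided permutation test gave p = 0.1 for each, the smallest that 3 against 3 can give. The genes left out held 43% and 40.1% of all reads in control replicates 1 and 2, and at most 0.105% in the other libraries. Shares of all reads would therefore be smaller in those controls and were not compared, so the direction is given for kept reads only. Over the plastid protein genes alone the shares of kept reads were 0.987%, 0.884% and 0.954% in induced libraries, against 1.06%, 1.23% and 0.957% in control libraries, with overlap. A plastid rRNA gene (NitaCr105), chosen after its values were seen, had 3510, 2760 and 3630 in induced libraries, against 6230, 5830 and 4960 in control libraries (log2 fold change -0.79, SE 0.14 and limma adjusted p of 0.00332, not called without control replicate 1 at -0.72 or with both times in 1 fit at -0.79). The libraries were made from polyadenylated RNA, and how far such reads follow the level of organelle transcripts was not tested.

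The largest decreases were in genes without a name. Names came from RefSeq symbols and from descriptions in the authors' lists, which hold higher genes only. Just 3 of the 95 lower genes had a name, against 29 of the 36 higher. Of the 95, 84 are annotated as protein coding and 4 as long non-coding RNA, and their median level was 7.56 in induced and 16.9 in control libraries. LOC107797524 had 3.85, 3.16 and 4.53 in induced libraries, against 23, 27.3 and 25 in control libraries. LOC107772048 had 8.51, 9.65 and 8.67 in induced libraries, against 50.2, 61.1 and 53.1 in control libraries. These 2 were about equally far apart, with log2 fold changes of -2.57 (SE 0.13 and limma adjusted p of 7.63e-12) and -2.55 (SE 0.11 and adjusted p of 5.63e-13). LOC107769553 had 11.1, 14.3 and 11.6 in induced libraries, against 55, 66 and 43.1 in control libraries (-2.09, SE 0.14 and adjusted p of 8.47e-08). LOC107800570 had 2.1, 0.961 and 1.53 in induced libraries, against 9.75, 9.22 and 8.01 in control libraries (-2.26, SE 0.18 and adjusted p of 1.05e-07), and was lost only with both times in 1 fit (-2.37).

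The next genes were also well separated. LOC107823556 had 4.83, 3.27 and 5.01 in induced libraries, against 18.1, 13.9 and 17.3 in control libraries (-1.81). LOC107793937 had 5.73, 4.4 and 5.67 in induced libraries, against 20.2, 19.3 and 13.8 in control libraries (-1.65). LOC107798225 had 5.26, 5.45 and 5.49 in induced libraries, against 16.7, 19.7 and 16.7 in control libraries (-1.62). The induced libraries of LOC107798225 were nearly equal, with an SD of 0.123 around 5.4. LOC107802378 (-1.58), LOC107799559 (-1.57) and LOC107771686 (-1.63) completed the 10 with the largest decreases. LOC107799559 lost its call with both times in 1 fit (-1.61), and LOC107771686 was not tested without any 1 control because its induced values were under 1. Apart from these and LOC107800570, the other 7 passed in all 18 alternatives. Their proteins have no annotated role in the sources used here.

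**Figure D4:**
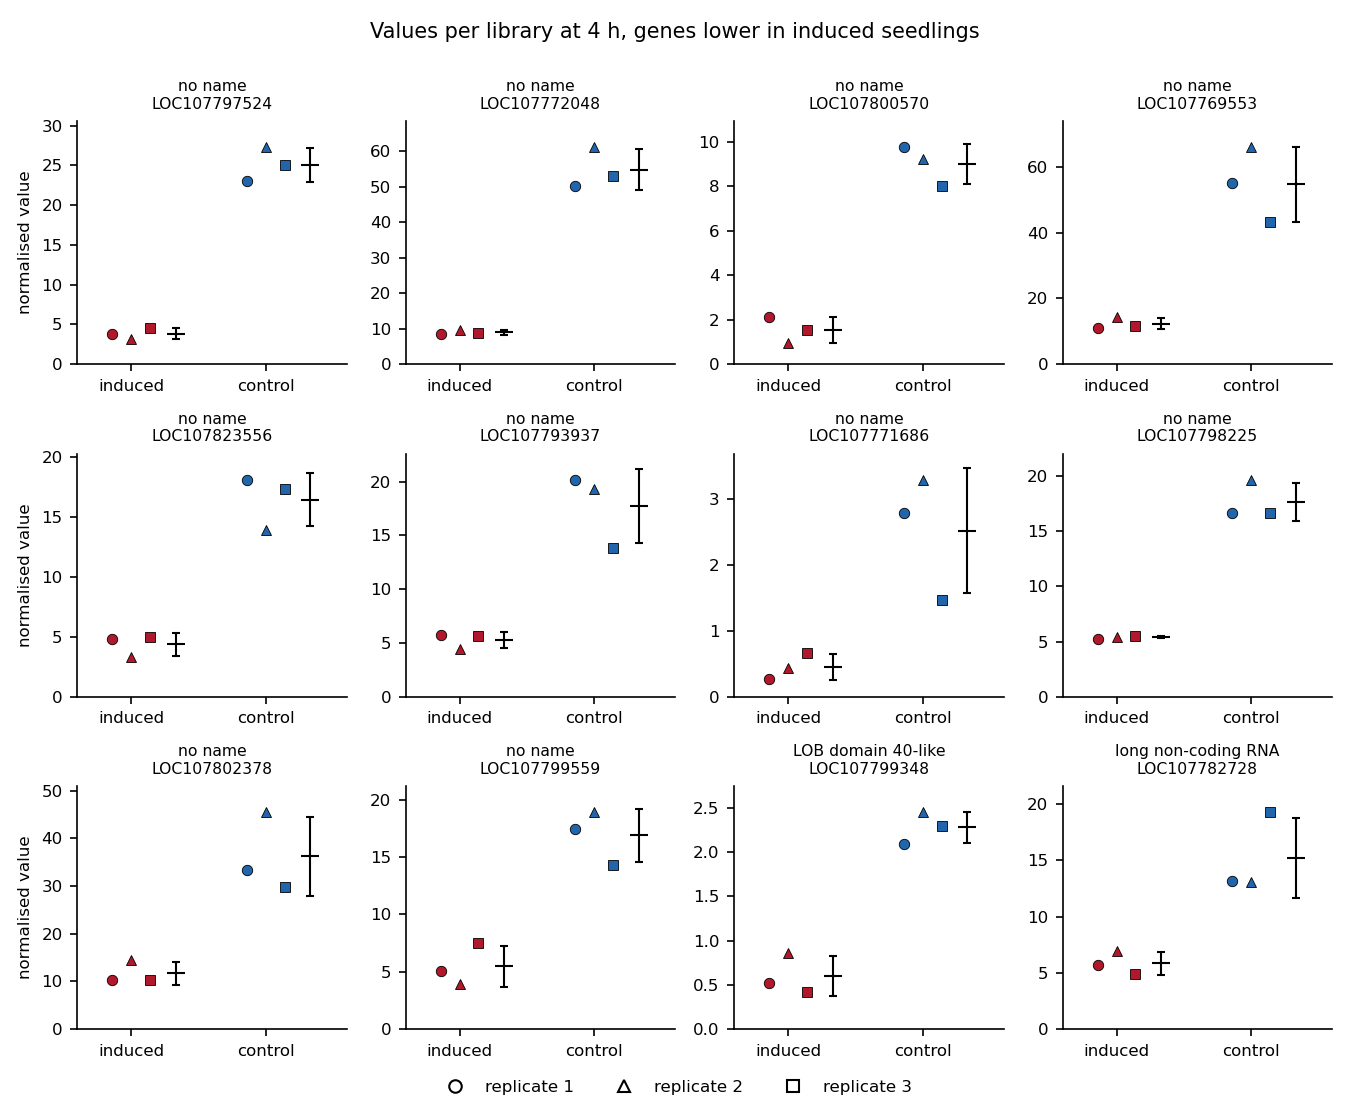
Normalised value in each of the 3 induced (red) and 3 control (blue) libraries for 12 genes that were lower in induced seedlings, with mean and SD. The 10 largest decreases, LOB domain-containing protein 40-like and a long non-coding RNA are shown, and in every panel all induced points lie below all control points.

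Among the higher genes without a name, a long non-coding RNA (LOC107809445) had 7.12, 10.1 and 5.88 in induced libraries, against 3.48, 3.87 and 3.13 in control libraries. It was above the controls in every library, with a log2 fold change of 1.01 (SE 0.17 and limma adjusted p of 0.00266), and it passed in 17 of 18 alternatives. ARGOS-like (LOC107781668), of a family that enlarges organs in Arabidopsis and chosen after its values were seen, had 4.01, 3.25 and 4.35 in induced libraries, against 2.09, 2.13 and 1.9 in control libraries (0.78, SE 0.17 and adjusted p of 0.0462, passing in 9 of 18 alternatives). Of the 131 genes, 119 could be placed in the RefSeq annotation of the assembly ASM71507v2, and 0 pairs of them lay within 5 genes of each other. Chaperone protein dnaJ 11 (LOC107759587), a small chloroplast cochaperone, was the 1 of 8 heat and chaperone genes that fell, with 12.7, 8.33 and 11.9 in induced libraries, against 22.3, 17.5 and 23.2 in control libraries (-0.91, SE 0.15 and adjusted p of 0.00529). The heat shock genes NtHsp70 (LOC107795135), at 228 ± 15.9 in induced and 244 ± 10.1 in control libraries, and NtHsp90 (LOC107770659), at 141 ± 10.5 and 155 ± 15.9, were close to their controls. The call of LOC107759587 ended without control replicates 1 or 3 (-0.87 to -0.84) and by edgeR (-0.91).

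The 4 h response was set beside that at 48 h in 1 fit on the recovered reads of both times, with control replicate 3 of 48 h left out because it repeats control replicate 2, so that n = 2 for that group, with 1240033 reads kept in its replicate 1. Of the 36 genes higher at 4 h, 15 (41.7%) had the same sign at 48 h, and their median log2 fold change there was -0.08, while 50.9% of all genes were above 0. Of the 93 lower genes measured at both times, 43 (46.2%) had the same sign, with a median of 0.07, while 49.1% of all genes were below 0. At 48 h 10 genes passed in that fit (0.0242%). Of the 36 higher genes 0 were among them by limma, with 3 higher and 10 lower at an unadjusted p under 0.05, and of the 93 lower genes 1 was. The difference between the effects, tested by an interaction term over 41261 genes, passed in 66 (0.16%), in 9 of the 36 and in 31 of the 93. The 4 h libraries that chose these genes enter this difference as well, so these counts describe them and do not test them afresh. In the paired fit 343 genes differed.

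Both CYP85A1 genes were among the 9. At 48 h LOC107760973 had 1.16, 1.08 and 0.564 in induced libraries, against 1.96 and 1.85 in the 2 control libraries, and LOC107776096 had 0.626, 0.293 and 0.32, against 0.839 and 1.24. Each was thus lower in every induced library than in either control at 48 h, and higher in every induced library at 4 h. In control replicate 1 of 48 h 1 read was worth 0.28 units, so its values rest on few reads. The decreases at 48 h did not pass on their own. Their log2 fold changes were -0.95 for LOC107760973 (SE 0.22 and limma adjusted p of 0.169) and -1.07 for LOC107776096 (SE 0.27 and adjusted p of 0.215). The effect at 48 h minus that at 4 h was -1.7 (SE 0.3 and limma adjusted p of 0.0111) and -1.98 (SE 0.36 and adjusted p of 0.0153) on the log2 scale. Basic leucine zipper 61-like (LOC107777300), with 2.6, 2.45 and 1.98 in induced libraries against 3.92 and 3.7 in control libraries at 48 h, differed by -1.46 (SE 0.23 and adjusted p of 0.00504). Values are scaled within a time and are not compared across times.

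Among the lower genes the long non-coding RNA LOC107782728, named here after its values were seen, was on opposite sides of its controls at the 2 times. At 4 h it had 5.73, 6.92 and 4.86 in induced libraries, against 13.2, 13.1 and 19.3 in control libraries (log2 fold change -1.3, SE 0.15 and limma adjusted p of 9.49e-05), in all 18 alternatives. At 48 h it had 38.7, 41.8 and 47.9 in induced libraries, against 15.9 and 15.1 in control libraries (1.45, SE 0.16 and adjusted p of 0.000321), the 1 gene of the 131 called at both times. Its induced libraries were all below the controls at 4 h and all above them at 48 h, and the difference of the effects was 2.78 (SE 0.21 and adjusted p of 4.46e-07). LOB domain-containing protein 40-like (LOC107799348) had 2.63, 2.25 and 2.07 in induced libraries, against 1.4 and 0.74 in control libraries at 48 h, and a difference of 2.57 (SE 0.36 and adjusted p of 0.00122). LOC107797524 stayed on the lower side, at 3.25, 2.72 and 6.25 in induced libraries against 5.31 and 9.88 in control libraries, with overlap, and its effects at the 2 times were not shown to differ (1.73, SE 0.48 and adjusted p of 0.45).

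**Figure D5:**
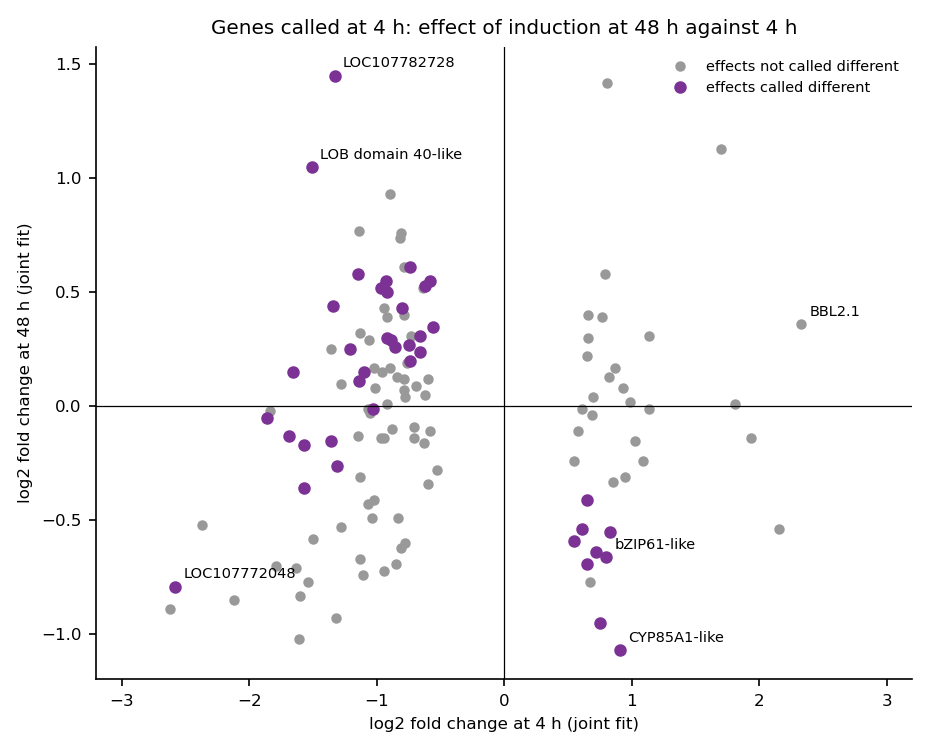
Log2 fold change of induced over control at 48 h (vertical axis) against that at 4 h (horizontal axis), both from 1 fit, for the genes called at 4 h that were measured at both times. Purple marks genes whose effects differed between the times by the interaction term, 9 of those higher and 31 of those lower at 4 h, and LOC107782728 lies at the upper left with effects of -1.33 and 1.45.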

How the data were processed

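RNA from aerial parts was sequenced as paired 150 bp reads by Illumina, per the labels' protocols. The authors deposited 1 table for each time with a normalised signal for each gene and library. edgeR is named in the submitters' processing notes, without a version. For the aligner, genome build, strand setting and counting tool: not given in the sources used here. In every library the signal was a whole number of reads times 1 constant (100% of values within 0.01 of a whole number), so reads were recovered from it. The fold (ratio) and p-value columns that the authors deposited beside the signal were not used. Names came from descriptions in the authors' deposited lists of higher genes and from RefSeq symbols (1425 of 44403 genes), and these lists also gave which genes the authors called higher.

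Genes with a value above 5000 and above 20 times their median in 1 library were left out. Genes with a value of at least 1 in 3 libraries were tested with limma 3.58.1 (trend and robust) in R 4.3.3 on log2(value + 0.5), two-sided, with Benjamini-Hochberg adjustment over 37238 genes and a threshold of 0.05. The pseudocount shrinks fold changes of low genes. The difference between times was an interaction term in limma on TMM-scaled log2(CPM + 0.5) of recovered reads. edgeR 4.0.16 and DESeq2 1.42.0 on recovered reads, other pseudocounts, filters and scalings, omitted libraries and replicate blocks were alternatives. Libraries of 1 number in the descriptions deviated together from their group means, with correlations of 0.18, 0.22 and 0.16 over 19703 genes. The other pairs had -0.18 to 0.03. That number was therefore used for the paired fit. The labels state no pairing, and the numbers in the titles give a different one. Because the pairing was chosen from the same values, p-values of the paired fit are not independent support. On simulated counts for the 4 h comparison (37238 genes), limma called 34% of 100 genes changed by 1 log2 unit, 91% of 100 changed by 2 and 0 unchanged genes. The simulation gave every gene the same set dispersion, drew libraries independently and changed only genes above a minimum level. It therefore does not measure how many false calls the real libraries give.

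The members and lists were chosen with earlier results of these data known, and some list members were added after descriptions were seen. The genes named were taken from a rule, not all that it allows: the 10 highest and 10 lowest log2 fold changes among called genes, list members called with or without pairing, up to 3 further members of each list by mean value, the green tissue markers, and the other copies of a named gene. Genes outside it are marked in the text.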

Additional observations from a re-analysis of the deposited data

Results flagged for a closer look

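For 17 named genes the effect of induction at 48 h differed from that at 4 h. All but the V-ATPase gene LOC107823795 were described above. The test was an interaction term in limma with adjustment over 41261 genes, of which 66 differed. The 48 h control has 2 libraries. The values are the effect at 48 h minus that at 4 h, in log2 units, and most of these genes were chosen for their effect at 4 h, which enters the difference.

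The difference was negative for 7 genes that had a positive log2 fold change at 4 h. It was -1.98 for CYP85A1-like LOC107776096 (adjusted p = 0.0153), -1.7 for CYP85A1 LOC107760973 (0.0111), -1.46 for basic leucine zipper 61-like LOC107777300 (0.00504), -1.37 for PHYTOCHROME KINASE SUBSTRATE 3-like LOC107815731 (0.0344), -1.34 for membrane-associated kinase regulator 6 LOC107764853 (0.00925), -1.18 for F-box protein SNE-like LOC107815865 (0.0397) and -1.06 for BAM1 LOC107770387 (0.0199). Of these 7, PHYTOCHROME KINASE SUBSTRATE 3-like and this SNE-like copy had not passed at 4 h in the unpaired fit of all libraries.

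The difference was positive for 10 genes with a negative log2 fold change at 4 h, of which histidine kinase 3-like had passed then only when paired and the V-ATPase gene not at all. It was 2.78 for the long non-coding RNA LOC107782728 (4.46e-07), 2.57 for LOB domain-containing protein 40-like LOC107799348 (0.00122), 1.8 for LOC107798225 (3.91e-05), 1.8 for LOC107823556 (0.0257), 1.79 for LOC107772048 (0.0109), 1.56 for LOC107793937 (0.0237), 1.49 for cox1 NitaMp049 (0.0492), 1.48 for dnaJ 11 LOC107759587 (0.0083), 1.03 for histidine kinase 3-like LOC107821378 (0.0109) and 0.9 for the V-ATPase A subunit gene LOC107823795 (0.0395). In the paired fit the difference of LOC107772048 did not pass (0.358), while the other 16 did. By edgeR the differences of 6 genes did not pass, with an adjusted p of 0.129 for LOC107815731, 0.0582 for LOC107815865, 0.0605 for LOC107770387, 0.0638 for LOC107823795, 0.166 for NitaMp049 and 0.0537 for LOC107793937. The V-ATPase gene LOC107823795 had 31.5, 25 and 24.9 in induced and 27.2, 31.8 and 33.9 in control libraries at 4 h, with overlap, and 17.5, 17.8 and 22.4 in induced and 11.7 and 11.6 in control libraries at 48 h, without overlap.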

How the results depend on the processing

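Over 18 alternatives for 73 named genes, 1031 values kept their direction and their side of the threshold, 163 lost the call, 99 gained one and 0 changed direction. Leaving out 1 library at a time gave 85 to 156 called genes, 17 to 54 higher, 63 to 118 lower, 10 to 22 listed genes higher and 0 to 4 listed genes lower, against 131, 36, 95, 26 and 3. Without control replicate 1, the shallow library, the first 3 of these counts were 85, 22 and 63. On kept reads, the plastid share difference ran between -1.95 and -1.31 percentage points and the mitochondrial one between -0.0504 and -0.0357. edgeR gave 19 higher genes and 14 listed ones, DESeq2 13 and 10. The replicate block by library number gave 376 genes, 161 higher and 215 lower, with 55 and 5 listed, and 343 genes with a difference between times, against 66 without it. The replicate block by the number in the titles, which pairs the libraries differently, gave 242, 94 and 148, with 47 listed genes higher. Fitting the 2 times together left 52 genes, 4 of them higher and 48 lower, with 3 listed genes higher. The causes were not tested. Scaling, pseudocount and filter left the counts within 1.5 times. With 1 read worth 0.697 units in control replicate 1, genes below a few units are measured there by single reads.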
